A study of Homo sapiens with 16 samples.

Results

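The NRF2 antioxidant response was followed through 9 genes: the transcription factor NFE2L2 (which encodes NRF2), its cytoplasmic partner KEAP1, and the target genes GCLM, GCLC, TXNRD1, SRXN1, NQO1, HMOX1 and OSGIN1. They were taken by gene symbol from count tables of 55510 symbols, and all 9 were among the 22007 genes that passed the filter on low counts. RNA was measured by poly-A sequencing in 16 libraries of CAL51, a breast cancer cell line labelled triple negative, at passage 10. The cells were given the vehicle DMSO or CC-671, an inhibitor of the kinases TTK and CLK2, and there were 2 DMSO libraries at 6 h, 2 at 24 h, and 3 libraries for each of 3 µM and 10 µM CC-671 at 6 h and at 24 h. All libraries come from 1 cell line, and the groups differ in treatment and time, not in a labelled change to the NRF2 pathway. Whether CAL51 itself carries such a change was not tested. The labels call the replicates biological, without saying how cultures were separated, so p-values here reflect how much these particular libraries vary.

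NRF2 is held in the cytoplasm by KEAP1, an adaptor of a cullin ubiquitin ligase that passes NRF2 to the proteasome. When electrophiles or oxidants modify cysteines of KEAP1, newly made NRF2 escapes, enters the nucleus and binds antioxidant response elements together with small MAF proteins. Its targets make glutathione, reduce thioredoxin and peroxiredoxins, reduce quinones and break down heme. Much of this control acts on the NRF2 protein, which RNA counts do not measure.

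Each library had 104609173 to 123789361 read pairs at genes. Levels are given as CPM, the count per 1000000 pairs at genes after scaling by TMM. A change is called where edgeR's quasi-likelihood test, fitted to all 16 libraries, gives a Benjamini-Hochberg adjusted p under 0.05 over all 22007 genes. Luminal keratins and EPCAM were expressed (KRT8 between 536 and 700 CPM), while KRT5, KRT14 and KRT17 did not pass the filter. CDH1 was called higher at 6 h (log2 0.13 with 3 µM and 0.21 with 10 µM) and lower at 24 h (-0.65 and -0.77). All 4 mesenchymal markers passed, with a sum of 1590 to 2360 CPM against 1590 to 1920 CPM for the epithelial markers. VIM was called higher in all 4 comparisons with DMSO, and CDH2, FN1 and ZEB1 lower at 24 h. ESR1 and PGR stayed at or under 0.0477 CPM in every library. ERBB2, at 84.7 to 192 CPM, was called lower at both times (log2 -0.99 and -1.06 at 6 h, -0.70 and -0.79 at 24 h). Of 8 leukocyte markers 4 passed the filter, and PTPRC made up most of their sum, which was 10.1 to 13.4 CPM with DMSO, 11 to 12.1 CPM with CC-671 at 6 h and 6 to 7.4 CPM with CC-671 at 24 h, while CD3E and CD68 stayed at or under 0.0259 CPM. PTPRC was called lower at 10 µM and 6 h and at both doses at 24 h, whereas CD14 (10.98- and 18.06-fold at 6 h, 2.98- and 3.66-fold at 24 h) and CD74 were called higher in all 4 comparisons with DMSO and LYZ in 3, none of these above 2.91 CPM in any library. Of 7 fibroblast markers 5 passed, mostly through COL3A1 and PDGFRB, with DCN and FAP at or under 0.0255 CPM. Their sum was 277 to 288 CPM with DMSO and 319 to 338 CPM with CC-671 at 6 h (3 called higher and 1 lower at each dose), and 348 to 353 CPM against 269 to 285 CPM at 24 h, where all 5 were called lower at each dose. Pairs outside annotated exons made up 4.26 to 4.76% with DMSO and 5.64 to 7% with CC-671, and the part of these shifts in the results was not tested. The total behind this share leaves out pairs that were unaligned, not uniquely aligned or of low quality. In bulk RNA, fewer cells expressing a gene and less RNA per cell cannot be told apart.

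At 6 h of 3 µM, 2 of the 9 genes were called higher and 3 lower, while among all genes 31.6% were called higher and 31.6% lower. At 6 h of 10 µM, 3 were higher and 2 lower, against 34% and 33.6% of all genes. At 24 h of 3 µM, 6 were higher and 1 lower, against 29.7% and 30.9% of all genes, and at 24 h of 10 µM, 5 were higher and 1 lower, against 31.3% and 32.3%. The median log2 fold change of the 9 genes was 0.0014, 0.06, 0.34 and 0.42 in that order, and over all genes it lay between 0.00081 and 0.017. CC-671 changed most of the tested genes of these cells in each of the 4 comparisons, so a call by itself does not set a gene apart. The 6 h counts lay near that background, and at 24 h most calls were in the upward direction.

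**Figure D1:**
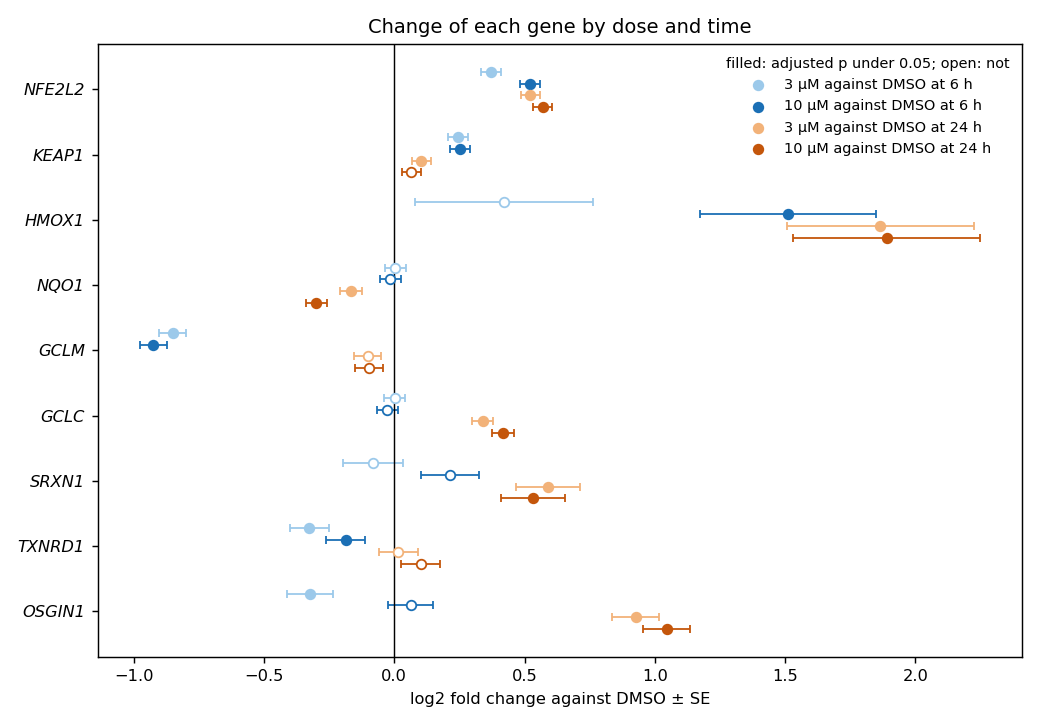
log2 fold change of each of the 9 genes against DMSO (x axis, with its SE) for 3 µM and 10 µM at 6 h and 24 h. Filled points have an adjusted p under 0.05, open points do not. GCLM lies far to the left at 6 h alone, GCLC and OSGIN1 lie to the right at 24 h, and NFE2L2 lies to the right in all 4 comparisons.

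The sites to which NRF2 and small MAF proteins bind carry the core TGACNNNGC, and that core was looked for on both strands in the 250 bases before each RefSeq start site (build GRCh38.p14). The table held 11 such windows for 8 of the 9 genes, and HMOX1 had no entry. Matches lay in 4 windows of GCLM, TXNRD1 and KEAP1, and they are shown because this element defines the response. By comparison, 10.9% of all 35116 windows and 13.2% of all genes with a window held a match. The windows of NFE2L2, NQO1, GCLC, SRXN1 and OSGIN1 held none, which says only that these letters are not within that stretch. Each match stands in capitals with 10 bases on either side, 5′ to 3′ along the strand of the gene. GCLM lies at chr1:93909446-93909474 on the minus strand, TXNRD1 at chr12:104215670-104215698 and chr12:104286920-104286948 on the plus strand before separate start sites, and KEAP1 at chr19:10502807-10502835 and chr19:10502784-10502812 on the minus strand.
GCLM: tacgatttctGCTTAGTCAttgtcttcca
TXNRD1, upstream start site: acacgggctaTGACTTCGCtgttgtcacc
TXNRD1, downstream start site: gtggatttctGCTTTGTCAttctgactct
KEAP1, match farther from the start site: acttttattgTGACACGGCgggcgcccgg
KEAP1, match nearer to the start site: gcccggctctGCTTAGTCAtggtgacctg
The GCLM match, the match at the downstream TXNRD1 start and the nearer KEAP1 match read as the core on the opposite strand. Their first bases lie at -34, -102 and -31 from the start sites. The other matches begin at -99 (TXNRD1, upstream start) and -54 (KEAP1). A match is a description of the sequence, and no binding was measured.

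With DMSO at 6 h, the 9 genes differed widely in level per kilobase of exon. On the scale of CPM per kilobase, NQO1 stood highest at 131, followed by TXNRD1 at 93.4, NFE2L2 at 27.7, KEAP1 at 26.3, GCLM at 18.8, GCLC at 6.97, HMOX1 at 6.00, OSGIN1 at 5.57 and SRXN1 at 0.841, each as the mean of 2 libraries. The ranges of HMOX1 (5.68 to 6.31) and OSGIN1 (5.35 to 5.78) overlapped, so their order is not set by these libraries. NFE2L2 (27.2 to 28.2) and KEAP1 (25.5 to 27.1) were close without overlapping. By 24 h of 10 µM, HMOX1 at 14.4 and OSGIN1 at 8.61 CPM per kilobase lay near GCLM at 14.3 and GCLC at 9.25. The lengths come from GENCODE 29, which may differ from the annotation used for counting. They join all annotated exons of a gene, which can exceed the RNA that is made. NFE2L2 and KEAP1, at 166 and 98.8 CPM, were close only after division by 5979 and 3761 bases. The order of the genes therefore also rests on these lengths.

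**Figure D2:**
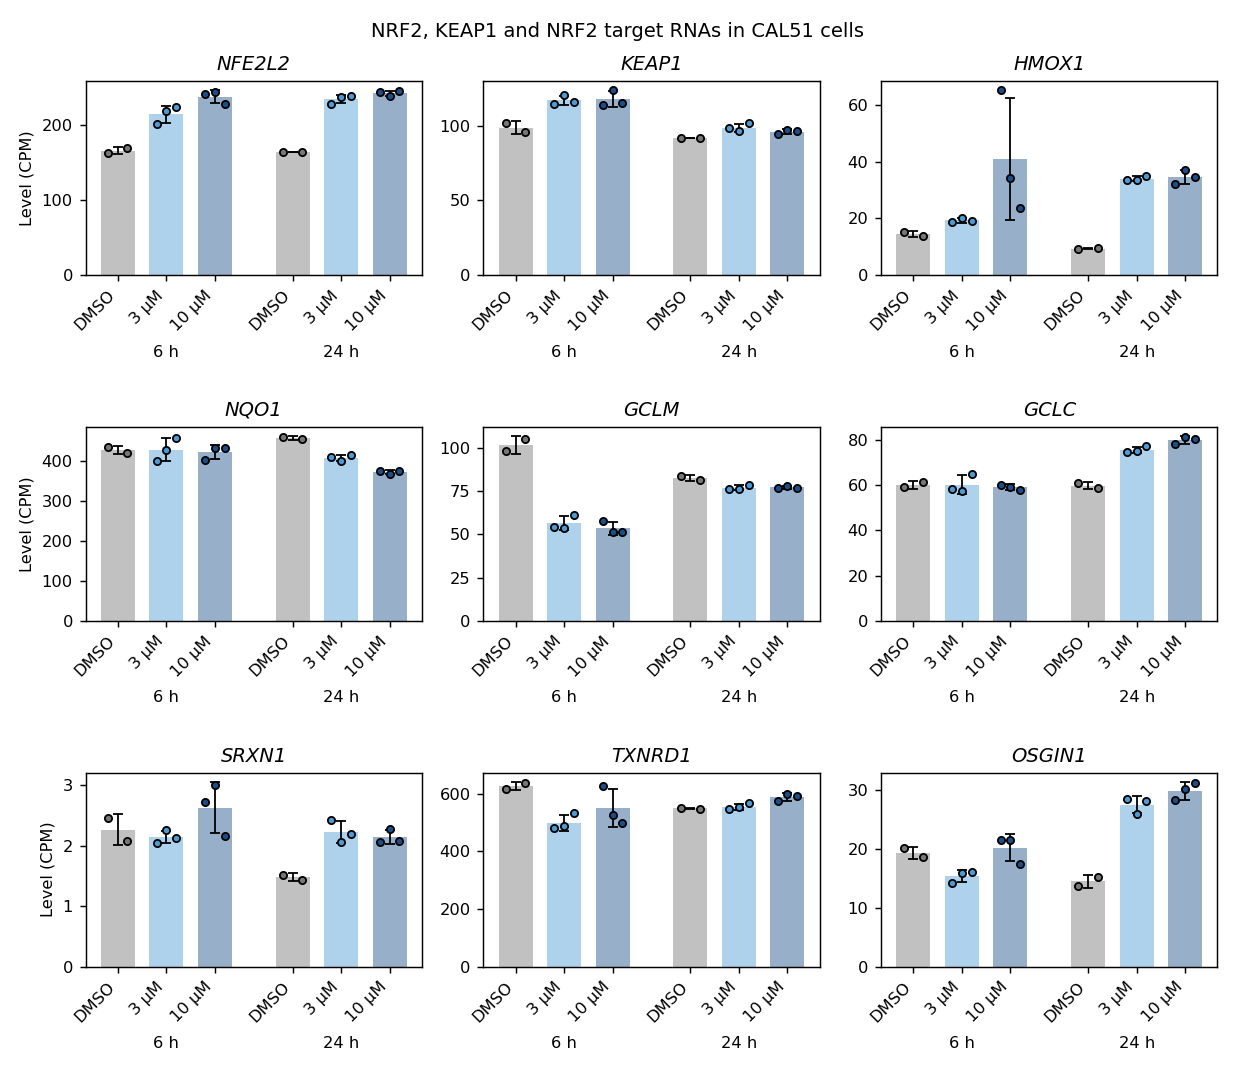
Level of each of the 9 genes in CPM (y axis, starting at 0) in every library, by treatment at 6 h and 24 h. Bars are group means, error bars 1 SD, points single libraries (n = 2 for DMSO, n = 3 otherwise). The replicate 1 point of HMOX1 at 10 µM and 6 h stands at 65.2 CPM, far above the other libraries.

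NFE2L2, the gene for NRF2 itself, was higher in every treated library than in any DMSO library. DMSO libraries had 163 and 169 CPM at 6 h and 163 and 163 CPM at 24 h. With 3 µM the level was 201, 218 and 223 CPM at 6 h and 228, 237 and 238 CPM at 24 h. With 10 µM it was 242, 243 and 228 CPM at 6 h and 243, 239 and 245 CPM at 24 h. At 6 h the 10 µM libraries also lay above the 3 µM libraries without overlap. The log2 fold change against DMSO was 0.37 ± 0.038 (SE) for 3 µM and 0.52 ± 0.038 for 10 µM at 6 h, and 0.52 ± 0.038 and 0.57 ± 0.038 at 24 h, with adjusted p between 3.19e-13 and 1.43e-09 in edgeR's quasi-likelihood test. NFE2L2 overlaps 11 other annotated genes, among them the protein-coding AGPS on the opposite strand, and the strand setting of the counting is not given in the sources used here.

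The dose difference of NFE2L2 was measurable at 6 h. There 10 µM exceeded 3 µM by 0.15 ± 0.033 on the log2 scale (edgeR, adjusted p = 0.00154). At 24 h the same difference was 0.05 ± 0.033 (edgeR, adjusted p = 0.487), with the 3 libraries of 10 µM still above the 3 of 3 µM. With 3 µM the 24 h change exceeded the 6 h change by 0.15 ± 0.053 (edgeR, adjusted p = 0.019), a call that was lost without DMSO replicate 2 at 6 h (adjusted p = 0.103), without either DMSO library at 24 h (adjusted p = 0.0558 and 0.0559), with DESeq2 (adjusted p = 0.068) and with RLE scaling (adjusted p = 0.0539). Without scaling factors that difference was 0.23 (adjusted p = 0.00025).

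KEAP1, the repressor of NRF2, rose by a smaller amount and mainly at 6 h. Its level was 102 and 95.8 CPM with DMSO at 6 h, 115, 121 and 116 CPM with 3 µM and 114, 124 and 115 CPM with 10 µM. At 24 h it was 91.7 and 91.9 CPM with DMSO, 98.2, 96.3 and 102 CPM with 3 µM and 94.5, 97.2 and 96.6 CPM with 10 µM. Treated and DMSO libraries did not overlap at either time, but the gap at 24 h was a few CPM. Its log2 fold change at 6 h was 0.24 ± 0.037 for 3 µM (edgeR, adjusted p = 1.73e-06) and 0.25 ± 0.037 for 10 µM (adjusted p = 8.82e-07). By 24 h it was 0.10 ± 0.037 for 3 µM (adjusted p = 0.0176) and 0.07 ± 0.037 for 10 µM (adjusted p = 0.125).

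The 24 h calls of KEAP1 depended on the processing. The call for 3 µM was lost without DMSO replicate 1 (adjusted p = 0.091), DMSO replicate 2 (adjusted p = 0.0805) or 3 µM replicate 3 (adjusted p = 0.0886), all at 24 h. At 10 µM KEAP1 was called with only the compared groups (0.0837, adjusted p = 0.000884), with a filter of 1 CPM in 5 libraries (0.104, adjusted p = 0.0164) and without scaling factors (0.18, adjusted p = 0.000158). Leaving out the scaling factors moved the median of all genes at 24 h by 0.101 with 3 µM and 0.111 with 10 µM on the log2 scale. The effect was smaller at 24 h than at 6 h by 0.14 ± 0.053 with 3 µM (edgeR, adjusted p = 0.0279) and by 0.19 ± 0.053 with 10 µM (adjusted p = 0.00357). The call with 3 µM was lost in 7 of 18 alternatives, among them leaving out DMSO replicate 2 at 6 h, either DMSO library at 24 h, 3 µM replicate 2 at 6 h or 3 µM replicate 1 or 2 at 24 h (-0.142 to -0.0979, adjusted p between 0.069 and 0.188). Without the scaling factors KEAP1 at 3 µM and 24 h was 0.20 (adjusted p = 2.91e-05), while the differences between the times were -0.06 (adjusted p = 0.329) and -0.09 (adjusted p = 0.138), and both calls were lost.

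Glutathione synthesis begins with glutamate-cysteine ligase, whose catalytic subunit is encoded by GCLC and whose modifier subunit, which raises the affinity for glutamate, by GCLM. GCLM fell at 6 h to 0.555 of its vehicle level with 3 µM and to 0.526 with 10 µM. It was at 98.1 and 105 CPM with DMSO, at 54.4, 53.9 and 61.0 CPM with 3 µM and at 58.0, 51.2 and 51.4 CPM with 10 µM. No treated library came near a DMSO library. Against vehicle, the log2 fold change was -0.85 ± 0.052 for 3 µM (edgeR, adjusted p = 1.3e-11) and -0.93 ± 0.052 for 10 µM (adjusted p = 2.51e-12), with ranges over the alternatives of -0.921 to -0.798 and -0.997 to -0.875. This was the largest absolute change among the 9 genes at 3 µM and 6 h, and at 10 µM and 6 h only the rise of HMOX1 was larger.

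By 24 h GCLM in treated cells lay close to the vehicle level. There it was at 83.8 and 81.5 CPM with DMSO, at 76.4, 76.2 and 78.5 CPM with 3 µM and at 76.7, 78.2 and 77.0 CPM with 10 µM. Treated libraries still lay below DMSO libraries, and the log2 fold changes of -0.10 ± 0.052 for each dose were not called (edgeR, adjusted p = 0.101 and 0.113). Both were called when only the compared groups entered the fit (adjusted p = 0.0035 and 0.00203) and with no filter on low counts (adjusted p = 0.0168 and 0.0245), and without scaling factors the 10 µM value was 0.01. The 24 h effect exceeded the 6 h effect by 0.75 ± 0.074 with 3 µM (edgeR, adjusted p = 5.46e-08) and by 0.83 ± 0.074 with 10 µM (adjusted p = 8.65e-09). In the vehicle cells GCLM fell by 0.30 ± 0.057 on the log2 scale between 6 h and 24 h (edgeR, adjusted p = 0.000792).

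GCLC followed another course, with no call at 6 h and a rise at 24 h. At 6 h it was at 59.0 and 61.4 CPM with DMSO, 58.3, 57.5 and 65.1 CPM with 3 µM and 60.2, 59.4 and 57.9 CPM with 10 µM, and the groups overlapped. At 24 h it was at 61.0 and 58.7 CPM with DMSO, 74.7, 75.2 and 77.1 CPM with 3 µM and 78.0, 81.4 and 80.5 CPM with 10 µM. Here every treated library exceeded every DMSO library. The log2 fold change was 0.34 ± 0.042 for 3 µM (edgeR, adjusted p = 6.6e-08) and 0.42 ± 0.042 for 10 µM (adjusted p = 1.1e-09) at 24 h, against 0.00 ± 0.041 and -0.03 ± 0.041 at 6 h. The difference between the times was 0.34 ± 0.059 with 3 µM (edgeR, adjusted p = 2.11e-05) and 0.44 ± 0.059 with 10 µM (adjusted p = 2.41e-07), and both held in all 18 alternatives. GCLC overlaps an antisense gene and a long noncoding RNA on its own strand.

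The ratio of GCLC to GCLM per length was higher with CC-671 at both times. As log2, it was -1.41 and -1.45 with DMSO at 6 h and lay between -0.58 and -0.46 in the 6 treated libraries. By 24 h it was -1.13 and -1.15 with DMSO and lay between -0.71 and -0.61 in the 6 treated libraries. At 6 h GCLM was the subunit that was called, and at 24 h GCLC. The ratio is a description without a test.

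TXNRD1 encodes the cytosolic thioredoxin reductase, a selenoprotein that keeps thioredoxin reduced with NADPH. It was lower at 6 h of 3 µM and not called at 24 h. At 6 h it was at 616 and 637 CPM with DMSO, 481, 487 and 532 CPM with 3 µM and 626, 526 and 499 CPM with 10 µM. The 3 µM libraries all lay below DMSO, whereas replicate 1 of 10 µM fell within the DMSO range. Its log2 fold change was -0.33 ± 0.075 for 3 µM (edgeR, adjusted p = 0.00227) and -0.19 ± 0.075 for 10 µM (adjusted p = 0.0449). Without replicate 1 the 10 µM value was -0.30 (adjusted p = 1.62e-07). The 10 µM call was lost in 9 of 13 alternatives, among them RLE scaling (adjusted p = 0.0533), the replicate block (adjusted p = 0.0788), only the compared groups (adjusted p = 0.177), and leaving out either DMSO library or 10 µM replicate 2 or 3 at 6 h (adjusted p between 0.0746 and 0.184).

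At 24 h TXNRD1 was at 549 and 548 CPM with DMSO, 546, 552 and 566 CPM with 3 µM and 575, 598 and 593 CPM with 10 µM. The 10 µM libraries lay above DMSO without overlap. Against vehicle, the log2 fold change was 0.02 ± 0.076 for 3 µM (edgeR, adjusted p = 0.869) and 0.10 ± 0.076 for 10 µM (adjusted p = 0.268), but the latter was called with only the compared groups (0.12, adjusted p = 1.75e-06) and without scaling factors (0.21, adjusted p = 0.0263). The 24 h effect exceeded the 6 h effect by 0.34 ± 0.11 with 3 µM (edgeR, adjusted p = 0.019) and by 0.29 ± 0.11 with 10 µM (adjusted p = 0.0392). The first call was lost without DMSO replicate 2 at 6 h (adjusted p = 0.0702) or either DMSO library at 24 h (adjusted p = 0.0536 and 0.0539), and the second in 9 of 18 alternatives, each of the 4 DMSO libraries included, with adjusted p up to 0.117. TXNRD1 overlaps EID3 on its own strand and an antisense gene.

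SRXN1 encodes sulfiredoxin, which restores overoxidised peroxiredoxins. It was the least abundant of the 9 genes, with 145 to 329 read pairs per library. At 6 h it was at 2.45 and 2.08 CPM with DMSO, 2.04, 2.25 and 2.13 CPM with 3 µM and 2.72, 3.00 and 2.17 CPM with 10 µM, and the groups overlapped. At 24 h it was at 1.52 and 1.43 CPM with DMSO, 2.42, 2.05 and 2.20 CPM with 3 µM and 2.06, 2.27 and 2.08 CPM with 10 µM, and all treated libraries lay above DMSO. The log2 fold change at 24 h was 0.59 ± 0.12 for 3 µM (edgeR, adjusted p = 0.000175) and 0.53 ± 0.12 for 10 µM (adjusted p = 0.000506).

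The vehicle level of SRXN1 moved between the times. Its treated levels at 24 h, 2.05 to 2.42 CPM, lay within the range of 2.04 to 3.00 CPM seen across all libraries at 6 h. With DMSO, SRXN1 fell by 0.62 ± 0.13 on the log2 scale from 6 h to 24 h (edgeR, adjusted p = 0.0012). At 6 h its log2 fold change was -0.08 ± 0.11 for 3 µM and 0.21 ± 0.11 for 10 µM (edgeR, adjusted p = 0.555 and 0.0924), and the latter was called without DMSO replicate 1 (adjusted p = 0.0483), without 10 µM replicate 3 (adjusted p = 0.00812) and with a filter of 1 CPM in 5 libraries (adjusted p = 0.0459). It was 0.0999 without DMSO replicate 2 (adjusted p = 0.546) and 0.101 without 10 µM replicate 2 (adjusted p = 0.455). SRXN1 and OSGIN1 each share their strand with an overlapping protein-coding locus known by a clone name, which could take part of their reads.

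NQO1, the quinone reductase that is the classic readout of the pathway, was called higher in none of the 4 comparisons with DMSO and lower in both at 24 h. At 6 h it was at 435 and 419 CPM with DMSO, 400, 428 and 457 CPM with 3 µM and 403, 433 and 432 CPM with 10 µM, and the groups overlapped. By 24 h it was at 460 and 454 CPM with DMSO, 408, 400 and 414 CPM with 3 µM and 373, 366 and 375 CPM with 10 µM. The 3 groups at 24 h were ordered by dose without overlap. Its log2 fold change at 24 h was -0.17 ± 0.041 for 3 µM (edgeR, adjusted p = 0.00109) and -0.30 ± 0.041 for 10 µM (adjusted p = 5.58e-07), against 0.00 and -0.01 at 6 h (adjusted p = 0.944 and 0.768). Without scaling factors the 3 µM value was -0.06 (adjusted p = 0.133), which was not called, and the 10 µM value was -0.19 (adjusted p = 9.4e-05).

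NQO1 was called between the doses at 24 h, with a log2 difference of 10 µM from 3 µM of -0.13 ± 0.037 (edgeR, adjusted p = 0.0282). That call was lost, at values of -0.14 to -0.12, without 3 µM replicate 1 or 3 or any of the 10 µM replicates at 24 h (adjusted p between 0.0749 and 0.117). The 24 h effect lay below the 6 h effect by 0.17 ± 0.058 with 3 µM (edgeR, adjusted p = 0.0171) and by 0.28 ± 0.058 with 10 µM (adjusted p = 0.00017). With 3 µM the call was lost without scaling factors (-0.09, adjusted p = 0.155), without DMSO replicate 2 at 6 h (-0.14, adjusted p = 0.0851), without DMSO replicate 1 at 24 h (adjusted p = 0.0638), without 3 µM replicate 3 at 6 h (-0.11, adjusted p = 0.0815) and without 3 µM replicate 2 at 24 h (adjusted p = 0.0587). With 10 µM it was -0.19 (adjusted p = 0.00355) without scaling factors. NQO1 overlaps an annotated antisense gene.

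HMOX1, the inducible heme oxygenase that breaks heme into biliverdin, iron and carbon monoxide, had the largest rise among the 9 genes. At 24 h it was at 9.27 and 9.41 CPM with DMSO, 33.5, 33.6 and 35.0 CPM with 3 µM and 32.3, 37.0 and 34.6 CPM with 10 µM. The libraries within each 24 h group lay close together, and the groups given CC-671 overlapped each other. HMOX1 was 3.65-fold higher with 3 µM (log2 1.87 ± 0.36, edgeR, adjusted p = 0.000967) and 3.71-fold higher with 10 µM (log2 1.89 ± 0.36, adjusted p = 0.000798). Both calls held in all 13 alternatives. HMOX1 overlaps no other gene in the annotation.

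At 6 h HMOX1 was higher with 10 µM by an amount that depended on replicate 1. It was at 15.2 and 13.7 CPM with DMSO, 18.8, 20.2 and 18.9 CPM with 3 µM, and 65.2, 34.3 and 23.6 CPM in replicates 1, 2 and 3 of 10 µM. All treated libraries lay above DMSO, and the 10 µM libraries above the 3 µM libraries, but the 10 µM group had an SD of 21.6 CPM around a mean of 41.0 CPM. Against vehicle, the log2 fold change was 1.51 ± 0.34 for 10 µM (edgeR, adjusted p = 0.00209) and 0.42 ± 0.34 for 3 µM (adjusted p = 0.313). Without replicate 1 the 10 µM value was 0.99 (adjusted p = 0.000155), and when the fit held only the compared groups it was 1.51 (adjusted p = 0.111). With only the compared groups the 3 µM value of 0.42 was called (adjusted p = 5.61e-07).

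The dose difference of HMOX1 at 6 h was 1.09 ± 0.29 on the log2 scale (edgeR, adjusted p = 0.0185). It was 0.58 without 10 µM replicate 1 at 6 h, and the call was lost without 3 µM replicate 3 at 6 h (adjusted p = 0.0609) and with only the compared groups (adjusted p = 0.197). At 24 h the difference was 0.02 ± 0.28 (edgeR, adjusted p = 0.981). With 3 µM the 24 h effect exceeded the 6 h effect by 1.44 ± 0.49 (edgeR, adjusted p = 0.0316). That call was lost in 8 of 18 alternatives, among them leaving out any of the 4 DMSO libraries, with values of 1.38 to 1.52 and adjusted p up to 0.0896. Over all 18 alternatives the adjusted p ran from 2.67e-14 to 0.0896. HMOX1 had an SD of 0.10 to 1.08 CPM in the 4 groups compared, and of 21.6 CPM in the 10 µM group at 6 h. That group also enters the shared fit. A fit of only the compared groups left it out, along with other groups. In that fit the 3 µM rise at 6 h was called (0.419, edgeR, adjusted p = 5.61e-07). The part of the 10 µM group at 6 h alone in the SE was not tested. With 10 µM the difference was 0.38 ± 0.49 (edgeR, adjusted p = 0.55), and it was 0.90 without 10 µM replicate 1 at 6 h (adjusted p = 0.00429) and 0.11 without 10 µM replicate 3 at 6 h (adjusted p = 0.813).

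Replicate 1 of 10 µM at 6 h was the highest of its group for HMOX1, TXNRD1, GCLM and, by under 1 CPM, GCLC, but not for NFE2L2, KEAP1, NQO1, SRXN1 or OSGIN1. TXNRD1 was at 626 CPM in it against 526 and 499 CPM in the other two, and GCLM at 58.0 against 51.2 and 51.4 CPM. Without it, GCLM was called lower with 10 µM than with 3 µM at 6 h (-0.14, adjusted p = 0.0224). It also had the highest values of its group for SLC7A11, the cystine importer (62.2 against 43.2 and 43.8 CPM), and for SQSTM1, which encodes the KEAP1-binding protein p62 (242 against 205 and 198 CPM). Its share of pairs outside exons, 6.7%, lay between those of replicates 2 and 3. It had more pairs at genes than they had (120064702 against 113062601 and 110206660). More genes had a count in it (28952 against 28366 and 28548). The part of these differences in its values was not tested. SLC7A11 and SQSTM1 were singled out here after their values were seen.

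OSGIN1, an NRF2 target linked to growth inhibition under oxidative stress, reversed its direction with time at 3 µM. At 6 h it was at 20.0 and 18.5 CPM with DMSO, 14.2, 15.8 and 16.1 CPM with 3 µM and 21.4, 21.5 and 17.5 CPM with 10 µM. By 24 h it was at 13.7 and 15.2 CPM with DMSO, 28.4, 25.8 and 28.0 CPM with 3 µM and 28.2, 30.1 and 31.1 CPM with 10 µM. The 3 µM libraries were all below DMSO at 6 h and all above it at 24 h, and the 10 µM libraries overlapped DMSO at 6 h. The log2 fold change with 3 µM was -0.32 ± 0.088 at 6 h (edgeR, adjusted p = 0.00509) and 0.93 ± 0.090 at 24 h (adjusted p = 4.64e-07). With 10 µM it was 0.06 ± 0.087 at 6 h (adjusted p = 0.546) and 1.05 ± 0.090, or 2.06-fold, at 24 h (adjusted p = 9.75e-08). The fall at 3 µM was no longer called without DMSO replicate 1 at 6 h (-0.28, adjusted p = 0.0542), and the 10 µM value at 6 h was called without 10 µM replicate 3 (0.15, adjusted p = 0.048).

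For OSGIN1 the effect at 24 h exceeded that at 6 h by 1.25 ± 0.13 with 3 µM (edgeR, adjusted p = 9.86e-07) and by 0.98 ± 0.12 with 10 µM (adjusted p = 8.61e-06), and both held in all 18 alternatives. At 6 h 10 µM exceeded 3 µM by 0.39 ± 0.079 (edgeR, adjusted p = 0.00266), and at 24 h by 0.12 ± 0.074 (adjusted p = 0.429). With DMSO, OSGIN1 fell by 0.42 ± 0.098 on the log2 scale from 6 h to 24 h (edgeR, adjusted p = 0.00755), a call lost without replicate 1 of DMSO at 6 h (adjusted p = 0.0778) or at 24 h (adjusted p = 0.0826). Its treated levels at 24 h nevertheless lay above every library of 6 h.

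Between the doses at 6 h, 4 of the 9 genes were called higher with 10 µM (NFE2L2, HMOX1, SRXN1 and OSGIN1) and 0 lower, against 12% and 12.9% of all genes. The count of 0 lower calls from edgeR was also 0 at an unadjusted p under 0.05, with DESeq2 and with limma-voom, and GCLM was lowest at -0.08 ± 0.048 (adjusted p = 0.283). SRXN1 differed by 0.30 ± 0.10 (edgeR, adjusted p = 0.0325), with overlapping groups and with the call lost in 7 of 14 alternatives, among them DESeq2 (adjusted p = 0.0583) and leaving out 3 µM replicate 1 or 3 or 10 µM replicate 1 or 2 at 6 h (adjusted p between 0.088 and 0.194). At 24 h 0 of the 9 were higher and 1, NQO1, was lower, against 2.49% and 3.85% of all genes. That 0 from edgeR was 1 at an unadjusted p under 0.05 and 0 with DESeq2 and with limma-voom. When the fit held only these 2 groups, GCLC (0.08, adjusted p = 0.00729), TXNRD1 (0.09, adjusted p = 0.00135) and OSGIN1 (0.12, adjusted p = 0.0488) were called higher at 24 h. TXNRD1 was called higher with 10 µM at 6 h without 10 µM replicate 3 (0.208, adjusted p = 0.0134).

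The vehicle cells changed as well. From 6 h to 24 h of DMSO, 0 of the 9 genes were called higher and 3 lower (GCLM, SRXN1 and OSGIN1), against 11% and 9.55% of all genes. The 0 higher calls from edgeR became 1 at an unadjusted p under 0.05 and stayed 0 with DESeq2 and with limma-voom. HMOX1 went from 15.2 and 13.7 to 9.27 and 9.41 CPM, a log2 change of -0.63 ± 0.40 (edgeR, adjusted p = 0.331), and was called with only the compared groups (adjusted p = 2.08e-05), as were TXNRD1 (-0.197, adjusted p = 0.000144) and KEAP1 (-0.113, adjusted p = 0.0246). In that fit NQO1 was called higher (0.0919, edgeR, adjusted p = 0.0176). NFE2L2, at -0.02 ± 0.041, and GCLC, at -0.01 ± 0.045, were not called.

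The 24 h effect minus the 6 h effect was called for all 9 genes with 3 µM, 7 higher and 2 lower, against 25.6% and 23.7% of all genes. With 10 µM it was called higher for 4 (GCLM, GCLC, TXNRD1 and OSGIN1) and lower for 2 (KEAP1 and NQO1), against 27.6% and 26.4%. SRXN1 differed between the times by 0.67 ± 0.17 with 3 µM (edgeR, adjusted p = 0.00149) and by 0.32 ± 0.17 with 10 µM (adjusted p = 0.113). The latter was called without 10 µM replicate 2 at 6 h (0.43, adjusted p = 0.0274) and without scaling factors (0.41, adjusted p = 0.041), and was 0.205 without DMSO replicate 1 at 6 h (adjusted p = 0.387) and 0.207 without 10 µM replicate 3 at 6 h (adjusted p = 0.263). NFE2L2 with 10 µM differed by 0.05 ± 0.053 (edgeR, adjusted p = 0.455), and by 0.14 (adjusted p = 0.0123) without scaling factors. The comparisons of both doses share the same DMSO libraries, so they are not independent of each other. Leaving out DMSO replicate 2 at 6 h, DMSO replicate 1 at 24 h or DMSO replicate 2 at 24 h lowered the upward calls with 3 µM from 7 to 4.

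Across the 16 libraries the 9 genes did not move as a block. As a description, the Pearson correlation of log2 CPM was 0.895 between NFE2L2 and HMOX1, 0.873 between GCLC and OSGIN1, and 0.716 between GCLM and TXNRD1. It was 0.342 between GCLM and GCLC, whose products form 1 enzyme, -0.86 between GCLM and KEAP1, and -0.762 between NQO1 and OSGIN1. The points share treatment groups and scaling, so these values carry no test.

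Among 13067 genes searched, the expression patterns most like those of the 9 were found by the same correlation over the 16 libraries. HMOX1 was most like ATF3 (0.983), a stress-induced transcription factor, then EREG (0.966) and SLC7A1 (0.964). GCLC was most like GOT1, GARS and PSAT1 (0.983, 0.981 and 0.979), enzymes of amino acid metabolism and tRNA charging, and OSGIN1 was most like C19orf26, SLC3A2 and VEGFA (0.958, 0.956 and 0.952). GCLM was most like PAK1IP1, MAK16 and GDA (0.986, 0.986 and 0.985), NFE2L2 like EIF1, TOB1 and ZNF16 (0.989, 0.987 and 0.986), and KEAP1 like COX4I1, SNRPD2 and CCDC124 (0.992, 0.99 and 0.988). NQO1 was most like ALDH1A1 (0.92), SMARCD1 (0.917) and ZNF423 (0.912). The closest patterns to SRXN1 (PDZK1IP1, 0.90) and TXNRD1 (PVR, 0.894) were less alike. None of the 9 genes was among the 3 nearest of another.

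Of 11 partners and turnover factors of NRF2, 5 rose and 4 fell at 6 h of 3 µM, 6 and 4 at 6 h of 10 µM, 4 and 2 at 24 h of 3 µM, and 7 and 2 at 24 h of 10 µM. The list median was 0.08 to 0.13 on the log2 scale, against 0.00081 to 0.017 for all genes. RBX1, the RING subunit of the cullin ligase that KEAP1 serves, went from 1.49 ± 0.0153 CPM (SD, n = 2) with DMSO to 12.7 ± 0.811 CPM (SD, n = 3) with 3 µM at 6 h. Its log2 fold change was 3.09 ± 0.092 (edgeR, adjusted p = 7.66e-21), the largest rise of the 11, and 3.26, 1.86 and 1.95 in the other comparisons with vehicle in the order above. BTRC, an F-box protein that marks NRF2 for a KEAP1-independent ligase, fell by 1.13, 1.44, 0.14 and 0.18 on the log2 scale in the same order, and NFE2L3, a relative of NRF2, fell by 0.39, 0.50, 0.50 and 0.62. SQSTM1 fell at 6 h (-0.71 and -0.62) and rose at 24 h (0.41 and 0.54), and GSK3B, a kinase that primes NRF2 for BTRC, fell at 6 h (-0.21 and -0.15) and was called higher at 10 µM and 24 h (0.09). MAFF, a small MAF partner of NRF2, was at 14.9 and 14.8 CPM with DMSO at 6 h and at 44.8, 24.8 and 23.2 CPM in replicates 1, 2 and 3 of 10 µM. Its log2 fold change there was 1.06 ± 0.24 (edgeR, adjusted p = 0.00216), 0.678 without replicate 1 (adjusted p = 1.64e-11) and not called with only the compared groups (adjusted p = 0.11). At 10 µM and 24 h it was 0.77 ± 0.25 (edgeR, adjusted p = 0.0189), a call lost without either DMSO library (adjusted p = 0.088 and 0.0763).

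Of 13 other glutathione genes, 5 rose and 4 fell at 6 h of 3 µM, 6 and 4 at 6 h of 10 µM, 4 and 6 at 24 h of 3 µM, and 4 and 7 at 24 h of 10 µM, with list medians of -0.03, 0.02, -0.05 and -0.14. SLC7A11, which brings in the cystine that glutamate-cysteine ligase needs, was at 91.6 and 110 CPM with DMSO and 42.7, 36.1 and 40.9 CPM with 3 µM at 6 h. At 24 h it was at 93.8 and 92.1 CPM with DMSO and 183, 182 and 192 CPM with 3 µM. Like OSGIN1 at 3 µM it was lower at 6 h and higher at 24 h, with log2 fold changes of -1.34, -1.02, 1.00 and 1.16 (edgeR, adjusted p between 7.09e-06 and 0.000105). GSS, glutathione synthetase, fell in all 4 comparisons (-0.66, -0.62, -0.42 and -0.46). The exporter ABCC4 fell by 1.38, 1.48, 0.91 and 0.98, ABCC2 rose by 0.35, 0.67, 0.88 and 0.95, and ABCC1 fell by 0.39, 0.51, 0.42 and 0.46. GGT1 rose by 0.54, 0.86 and 0.20 in the first 3 comparisons. GPX2, with an average log2 CPM under 1, rose at 24 h by 0.77 and 1.12. GLRX, a glutaredoxin, rose by 0.71 and 0.54 at 6 h and by 0.22 at 10 µM and 24 h.

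Of 10 other thioredoxin and peroxiredoxin genes, 7 rose at 6 h with each dose (1 fell with 3 µM and 2 with 10 µM), and 3 rose and 4 fell at 24 h of 3 µM, 2 and 4 at 24 h of 10 µM. PRDX2 rose by 0.18 at 6 h with each dose and fell at 24 h by 0.53 and 0.71, and PRDX6 rose by 0.25 and 0.31 and then fell by 0.18 and 0.23. TXNRD2, the mitochondrial paralog of TXNRD1, fell in all 4 comparisons (-0.17, -0.15, -0.22 and -0.32), PRDX3 fell at 24 h (-0.26 and -0.32), and TXNRD3 was lower at 10 µM and 6 h (-0.20). Thioredoxin itself, TXN (0.13, 0.15, 0.10 and 0.10), and PRDX5 (0.26, 0.30, 0.12 and 0.14) rose in all 4 comparisons, and PRDX4 rose in the first 3 (0.30, 0.29 and 0.12). Of 15 detoxifying enzymes, 4 rose and 8 fell at 6 h of 3 µM, 4 and 7 at 6 h of 10 µM, 3 and 7 at 24 h of 3 µM, and 3 and 5 at 24 h of 10 µM. PIR, AKR1C2 and, at 6 h, CYP4F11 fell with the majority, PIR by 0.67, 0.75, 0.61 and 0.76, and UGT1A6 fell at 24 h by 1.06 and 1.16. The AKR1C genes and the UGT1A genes are near-identical or share exons, so their split is uncertain. Against that majority, CBR1, a carbonyl reductase, rose by 0.60, 0.54, 0.24 and 0.32, and its relative CBR3 (0.44 and 0.28), AKR1B1 (0.155 and 0.21) and TRIM16 (0.20 and 0.37) rose at 6 h. At 24 h AKR1B1 fell by 0.21 and 0.34 and CBR3 by 0.15 with 3 µM. NQO2, the paralog of NQO1, fell at 6 h by 0.25 and 0.37 and rose at 24 h by 0.35 and 0.28, and EPHX1, an epoxide hydrolase, rose at 24 h by 0.20 and 0.14.

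Of 9 heme and iron genes, 4 rose in each of the 4 comparisons while 4, 4, 3 and 3 fell. FTH1, the heavy chain of the iron store ferritin, rose by 0.29, 0.47, 0.44 and 0.54, FTL, the light chain, by 0.32, 0.38, 0.31 and 0.34, and BLVRB, a biliverdin reductase, by 0.14, 0.18, 0.37 and 0.52. HMOX2, the constitutive paralog of HMOX1, rose by 0.17 and 0.10 at 6 h and fell by 0.17 with each dose at 24 h, when HMOX1 was 3.65- and 3.71-fold higher. Without scaling factors both falls of HMOX2 were lost (-0.0667 and -0.0639, edgeR, adjusted p = 0.186 and 0.2). SLC48A1, a heme transporter, fell at 6 h by 0.97 and 1.16. FECH, which inserts iron into heme, fell by 0.27, 0.29, 0.14 and 0.25. ABCB6, with an average log2 CPM under 1, fell by 0.47 at 3 µM and 6 h and by 0.45 and 0.56 at 24 h. Of 6 NADPH-generating enzymes, 3 rose and 2 fell at 6 h with each dose, and at 24 h 0 rose and 5 fell, with list medians of -0.20 and -0.25 (0 rises in edgeR also at an unadjusted p under 0.05, in DESeq2 and in limma-voom). PGD went from 0.10 and 0.18 at 6 h to -0.20 and -0.17 at 24 h, and TALDO1 from 0.19 and 0.20 to -0.13 and -0.20. TKT fell at 24 h by 0.21 and 0.31. IDH1 (-0.14, -0.41, -0.37 and -0.31) and ME1 (-0.80, -1.33, -0.79 and -1.37, at or under 0.706 CPM) fell in all 4 comparisons. Of 5 superoxide and peroxide enzymes outside the set, 5 and 4 rose and 0 fell at 6 h in edgeR (0 also at an unadjusted p under 0.05, in DESeq2 and in limma-voom), while at 24 h 1 rose with each dose, which was GPX1 at 0.68 and 0.78, and 1 fell with 3 µM and 3 with 10 µM. CAT, catalase, went from 0.36 and 0.17 at 6 h to -0.18 and -0.16 at 24 h, GPX4 from 0.27 and 0.32 to -0.04 (not called) and -0.12, and SOD2 rose at 6 h by 0.18 and 0.28. In each comparison 29.7 to 34% of all genes were called in each direction, against which these list counts should be read.

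Of 162 calls against vehicle of the 48 genes named from these lists, 133 held in every alternative run and none reversed. Leaving out 1 library ended 21 calls. These were BLVRB, PGD, TXN, ABCB6 and ME1 at 3 µM and 6 h, TXNRD3 and HMOX2 at 10 µM and 6 h, GGT1, TALDO1, TXN, PRDX4, PRDX5, CBR3, HMOX2, ABCB6 and ME1 at 3 µM and 24 h, and MAFF, GPX4, GSK3B, GLRX and TXN at 10 µM and 24 h. HMOX2 at 10 µM and 6 h was lost in 5 of 13 alternatives (0.062 to 0.149, adjusted p up to 0.31), with 0.0658 without DMSO replicate 2 and 0.062 without 10 µM replicate 2. GGT1 at 3 µM and 24 h was also lost in 5 of 13 (adjusted p up to 0.196), CBR3 there was -0.0849 without DMSO replicate 1 (adjusted p = 0.3), and BLVRB at 10 µM and 6 h was 0.109 without replicate 2 of 10 µM (adjusted p = 0.0232). Leaving out the scaling factors ended 11 calls, all falls at 24 h. These were BTRC, CAT and HMOX2 at both doses, TALDO1, CBR3 and FECH at 3 µM, and PGD and GPX4 at 10 µM.

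**Figure D3:**
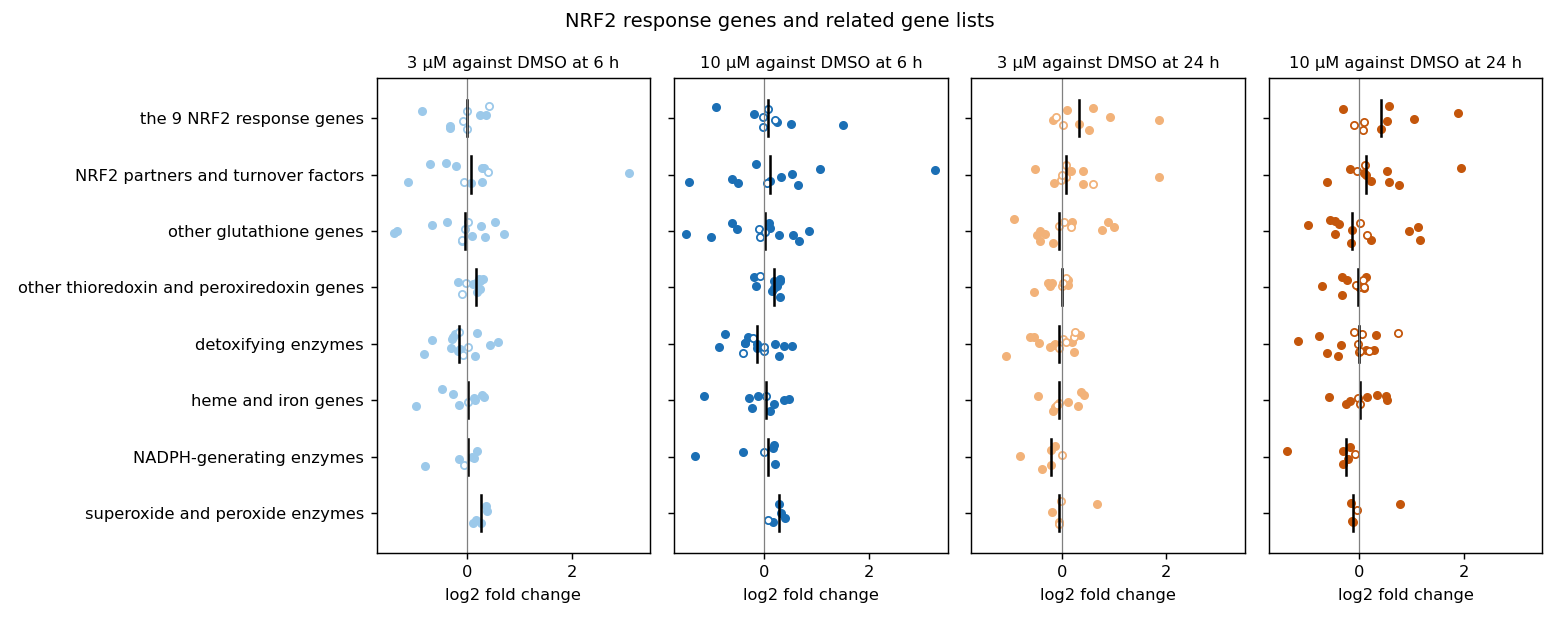
log2 fold change (x axis) of the 9 NRF2 response genes and of the genes of 7 related lists (y axis) in the 4 comparisons with DMSO. Each point is a gene, filled where its adjusted p is under 0.05, and black lines are list medians. The median of the 9 genes lies at 0.0014 and 0.06 at 6 h and at 0.34 and 0.42 at 24 h, while the median of the NADPH-generating enzymes lies at -0.20 and -0.25 at 24 h.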

How the data were processed

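RNA from 16 CAL51 libraries was measured by poly-A sequencing with strand-specific libraries and reads of 100 bases from both ends, per the labels' protocols. The authors deposited 1 table per library with the number of read pairs assigned to each gene symbol, an unnormalised count. Per the submitters' processing notes, STAR, HTSeq and edgeR were used with build hg19 (GRCh37), with no versions named. How strand was treated and which annotation was used is not given in the sources used here. Entries that name no gene, 16.9 to 20.2% of pairs, entered neither library sizes nor tests. Genes were kept by filterByExpr (minimum count 10, minimum total 15), scaled by TMM (factors 0.963 to 1.05) and fitted as 6 group means with edgeR 4.0.16 (robust quasi-likelihood, R 4.3.3). P-values are two-sided and were adjusted by Benjamini-Hochberg over 22007 genes within each of 9 comparisons. The code was tested on simulated data.

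The 9 genes, the 7 pathway lists (69 genes) and the 5 marker lists were chosen with earlier results of these data known. All 9 genes were named throughout. Of each pathway list, up to 4 called genes with the largest change against vehicle and an average log2 CPM of at least 1 were named, then called genes that moved against their list and paralogs of the 9, a few of them without every value. For each of the 9 genes the 3 with the highest Pearson correlation of log2 CPM (prior count 2) over the 16 libraries were named. Levels per kilobase used GENCODE 29 exon lengths (GRCh38), and promoter windows came from RefSeq (GRCh38.p14).

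Alternatives were DESeq2 1.42.0, limma-voom (limma 3.58.1), RLE factors, no scaling factors, no filter beyond a count of 1, a filter of 1 CPM in 5 libraries, only the compared groups, a replicate block, and leaving out each library of a comparison in turn. Libraries of 1 group differed beyond counting noise (chi-square per gene 2.39 to 17.5), so none duplicated another. Libraries with the same replicate number did not deviate together (correlations of -0.0757 to 0.0808 over 36 pairs), so the numbers were not used as pairs.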

Additional observations from a re-analysis of the deposited data

Results flagged for a closer look

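For each of the 9 genes, the effect of CC-671 at 24 h was compared with its effect at 6 h by an interaction term in edgeR, and the differences with an adjusted p under 0.05 are listed here on the log2 scale with their SE. Between 23.7 and 27.6% of all genes were called in each direction in these tests, so a difference of this kind was common.

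With 3 µM the 24 h effect was higher by 1.44 ± 0.492 for HMOX1 (adjusted p = 0.0316), by 1.25 ± 0.125 for OSGIN1 (9.86e-07), by 0.748 ± 0.074 for GCLM (5.46e-08), by 0.671 ± 0.169 for SRXN1 (0.00149), by 0.342 ± 0.107 for TXNRD1 (0.019), by 0.338 ± 0.0586 for GCLC (2.11e-05) and by 0.151 ± 0.053 for NFE2L2 (0.019). It was lower for NQO1 (-0.17 ± 0.0578, 0.0171) and KEAP1 (-0.14 ± 0.0525, 0.0279).

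With 10 µM it was higher by 0.984 ± 0.124 for OSGIN1 (8.61e-06), by 0.829 ± 0.0741 for GCLM (8.65e-09), by 0.445 ± 0.0585 for GCLC (2.41e-07) and by 0.288 ± 0.107 for TXNRD1 (0.0392). It was lower for NQO1 (-0.284 ± 0.0578, 0.00017) and KEAP1 (-0.187 ± 0.0525, 0.00357). All of these tests use the 4 DMSO libraries, in which GCLM, SRXN1 and OSGIN1 were themselves lower at 24 h than at 6 h.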

How the results depend on the processing

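Across the 81 results of the 9 genes, 1020 of 1152 alternatives kept both the direction and the side of the threshold, 69 lost a call, 30 gained one and 33 reversed. The 46 called results never reversed. Against vehicle, 19 of 36 results kept both the direction and the side of the threshold in every alternative run. With 2 or 3 libraries per group, the size of a difference that was called varied by gene. With 3 µM, the 24 h minus 6 h effect of HMOX1 at 1.44 lost its call in 8 of 18 alternatives. Its adjusted p ran from 2.67e-14 to 0.0896 over them, and that of GCLC at 0.34 kept its call in all. The fit is shared with the 10 µM group at 6 h, where HMOX1 had an SD of 21.6 CPM. SRXN1 rests on the fewest reads. The causes of the changes below were not tested beyond the smaller sets of genes or libraries that some alternatives use.

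The count of the 9 genes lower at 6 h of 10 µM went from 2 to 1 with RLE scaling, no scaling factors, the filter of 1 CPM in 5 libraries, the replicate block and only the compared groups. Lower calls at 24 h went from 1 to 2 with no filter and with only the compared groups at each dose, and to 0 without scaling factors at 3 µM. Without scaling factors the lower calls of the 24 h minus 6 h effect went from 2 to 0 at 3 µM and to 1 at 10 µM. With only the compared groups, the higher calls of 10 against 3 µM went from 4 to 2 at 6 h and from 0 to 3 at 24 h, and those of DMSO at 24 h against 6 h from 0 to 1 higher and from 3 to 6 lower. In that fit the calls over all genes went from 5480 to 3420 for 10 against 3 µM at 6 h and from 1397 to 3753 at 24 h.

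Leaving out 1 library gave 3 to 5 higher and 1 to 2 lower calls at 6 h of 10 µM. For 10 against 3 µM it gave 2 to 5 higher and 0 to 1 lower calls at 6 h, and 0 to 1 lower at 24 h. For the 24 h minus 6 h effect of 3 µM it gave 4 to 7 higher and 0 to 2 lower calls.

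Every reversal concerned a value near 0 that was not called. At 3 µM and 6 h, NQO1 was -0.0105 with no filter and -0.0188 with the replicate block. GCLC was -0.000445 with limma-voom, -0.0128 with no filter, -0.0144 with the replicate block and -0.00116 with only the compared groups. At 10 µM and 6 h, NQO1 was 0.00111 without scaling factors and 0.0312 with the 1 CPM filter, which gave 0.0203 for GCLC. Without scaling factors GCLM at 10 µM and 24 h was 0.0138, and KEAP1 for 10 against 3 µM at 6 h was -2.55e-05. Leaving out libraries gave -0.057 to 0.0395 for NQO1, -0.0677 to 0.03 for GCLC and -0.195 to 0.0282 for SRXN1 at 3 µM and 6 h, and -0.0425 to 0.0088 for NQO1 and -0.0677 to 0.00151 for GCLC at 10 µM and 6 h. For 10 against 3 µM it gave -0.0285 to 0.0334 for KEAP1, -0.0649 to 0.0314 for NQO1 and -0.0567 to 0.0309 for GCLC at 6 h, and -0.0281 to 0.0718 for HMOX1, -0.00513 to 0.0172 for GCLM and -0.113 to 0.00557 for SRXN1 at 24 h. For DMSO it gave -0.0527 to 0.00573 for NFE2L2 and -0.0433 to 0.0195 for GCLC. The labels do not say whether the replicate numbers pair the libraries. The replicate block ended the calls of TXNRD1 at 10 µM and 6 h (-0.187, adjusted p = 0.0788) and of its 24 h minus 6 h effect (0.289, adjusted p = 0.0663).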
